A study of Homo sapiens with 9 samples.

Results

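The genes of glycogen synthesis and breakdown were taken as 10 of the 60683 genes in the count table, chosen by gene symbol: GYG1, PGM1, UGP2, GYS1, GYS2, GBE1, PPP1R3B, PPP1R3C, PYGL and PYGB. RNA was sequenced from Hep3B cells, an established human liver cancer line, after 24 hours in 3 conditions: vehicle (DMSO) at 20% O2, vehicle at 1% O2, and 32-134D at 1% O2, with 3 biological replicates of each. The compound 32-134D is an inhibitor of the hypoxia-inducible factors (HIFs), and the comparisons asked how these genes responded to hypoxia and to the inhibitor under hypoxia. No library with 32-134D at 20% O2 was analysed here, so the effect of the compound at 20% O2 is unknown, and both comparisons with vehicle at 1% O2 used the same 3 libraries.

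Glycogen is the branched store of glucose in liver and muscle. Glycogenin starts each particle. Phosphoglucomutase and UDP-glucose pyrophosphorylase supply UDP-glucose, glycogen synthase lengthens the chains and the branching enzyme joins them. Phosphorylase releases glucose 1-phosphate from the chain ends. Protein phosphatase 1 (PP1), brought to glycogen by targeting subunits, activates the synthase and inactivates phosphorylase. The HIFs are transcription factors that accumulate when oxygen is low and bind DNA at a short core motif, the hypoxia response element.

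The libraries held 6013980 to 40549699 counts, the smallest being replicate 2 of vehicle at 20% O2. Replicate 3 of 32-134D stood apart from replicates 1 and 2 of its group. The chi-square statistic per degree of freedom between their counts was 36.4 and 32.5, against 1.998 between replicates 1 and 2. In both vehicle groups replicate 1 differed most. Its values were 6.21 and 12.0 at 20% O2, against 1.62 between replicates 2 and 3. At 1% O2 they were 7.90 and 11.8, against 2.48. For a given difference this statistic grows with library depth, so its size cannot be compared between groups. All 8 hepatocyte markers examined were detected in each group, with summed levels of 17978 to 19371 CPM (counts scaled to library size by the trimmed mean of M-values) in vehicle at 20% O2, 13061 to 16403 CPM in vehicle at 1% O2 and 11363 to 17742 CPM in 32-134D. Of these markers APOB fell by 3.47 on the log2 scale in hypoxia and was 3.12 higher with 32-134D. AFP was called lower in hypoxia, and TTR, FGB and TF were called lower with 32-134D. The latter were lowest in replicate 3 of 32-134D. Over its replicates TTR was at 37.9, 34.5 and 9.79 CPM, FGB at 33.5, 33.1 and 6.86, and TF at 1545, 1505 and 584. Their means in vehicle at 1% O2 were 52.3, 48.8 and 2104 CPM. Summed leukocyte markers reached at most 0.909 CPM and endothelial markers at most 1.28 CPM. Summed mesenchymal markers ranged from 28.3 to 31.5 CPM in vehicle at 20% O2, from 13.1 to 14.3 CPM in vehicle at 1% O2 and from 29.1 to 32.6 CPM in 32-134D, and summed skeletal muscle markers from 12.1 to 13.7, from 3.02 to 4.29 and from 9.53 to 11.3 CPM. Both sums were lowest in vehicle at 1% O2. The muscle sum hid opposite differences in replicate 3 of 32-134D. Over the replicates of 32-134D, CKM was at 6.92, 6.16 and 1.78 CPM and ACTA1 at 2.67, 3.37 and 9.51 CPM. PDGFRB made up most of the mesenchymal sum, at means of 27.2, 10.1 and 21.99 CPM, whereas LUM was at 2.43, 3.76 and 8.39 CPM, and COL3A1 and DCN, like MYH7 of muscle, were at or near 0. The part of these marker differences in the results was not tested. In these bulk libraries a change in the number of cells with a transcript and a change in its amount per cell cannot be told apart.

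The 5 glycogen genes called higher in hypoxia, as defined below, are shown first by the DNA before their start sites (RefSeq, GRCh38.p14). Each held the core motif ACGTG or GCGTG, on either strand, within 250 bases before at least 1 annotated start. Of 35116 promoters in the same table, 43.2% held at least 1 such motif in that window and 19.4% held 2 or more. These shares are per promoter, not per gene, and a gene with several starts has more than 1 window that can hold a motif. No share per gene was computed, so the 5 genes have no matching background. RefSeq promoters were matched for 8 of the 10 genes, all but GYS2 and PPP1R3B. Capitals mark the motif as read on the gene's strand (ACGTG or GCGTG, or CACGT or CACGC for the opposite strand), and each CACGTG counts as 2 overlapping matches. GYS1 held 2 matches, both GCGTG, at chr19:48993311-48993559 on the minus strand, and PPP1R3C held 4 matches, all ACGTG, at chr10:91633072-91633321 on the minus strand.
GYS1: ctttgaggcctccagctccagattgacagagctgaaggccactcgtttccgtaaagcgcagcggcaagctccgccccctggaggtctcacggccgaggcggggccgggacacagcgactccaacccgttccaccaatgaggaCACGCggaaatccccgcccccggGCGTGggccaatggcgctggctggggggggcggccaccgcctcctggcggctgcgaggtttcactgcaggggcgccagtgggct
PPP1R3C: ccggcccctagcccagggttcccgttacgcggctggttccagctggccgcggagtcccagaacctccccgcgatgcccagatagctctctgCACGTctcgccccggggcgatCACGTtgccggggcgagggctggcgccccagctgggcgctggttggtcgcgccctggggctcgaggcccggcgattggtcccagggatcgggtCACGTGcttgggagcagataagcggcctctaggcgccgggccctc

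For the other 3 genes called higher, the window overlapped an annotated exon of the same gene (GENCODE), and the matches are given as short sites. GYG1 held 3 matches in 1 stretch at chr3:148991480-148991508 on the plus strand. GBE1 held 1 match at chr3:81761785-81761813 and 1 at chr3:81761741-81761769, both on the minus strand. PGM1 has 3 RefSeq starts, of which 1 held matches, at chr1:63593641-63593669 and chr1:63593766-63593795 on the plus strand. The windows of its other starts held none. The sites printed for GYG1, GBE1 and PGM1 all lie inside the genes as annotated by GENCODE.
GYG1: gcgagaGCGTGcgcggcCACGTGacggcc
GBE1, upstream site: caggtgccagccGCGTGagtgggcggaga
GBE1, downstream site: tacccgctccggACGTGcgtcccggcatc
PGM1, upstream site: gcggcaggaggcCACGCtggtggtgggcg
PGM1, downstream site: accctggcGCGTGtgcgACGTGcggcccgc
The motif was not confined to the genes called higher: UGP2 held 2 matches at 1 start and 1 at the other, and PYGB held 2. PYGL held none in this window. UGP2 and PYGL were also higher in hypoxia, each by 0.37 on the log2 scale, which is less than 1.5-fold.

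Hypoxia raised 5 of the 9 glycogen genes that could be tested, those for glycogenin, phosphoglucomutase, glycogen synthase, the branching enzyme and 1 PP1 targeting subunit, by 2.80-fold to 3.88-fold, and lowered none. A gene was called when the false discovery rate (FDR) of edgeR's quasi-likelihood test was below 0.05 and its fold change exceeded 1.5. Of the 22672 genes tested, 19.5% were called higher and 20.3% lower in hypoxia, and of the 11527 genes with a mean normalised count of at least 100, 28.4% and 19.8%. The median log2 fold change was 1.49 for the 9 glycogen genes, 0.00 for all genes tested and 0.16 for those with a mean count of at least 100. With 32-134D at 1% O2, GYG1, PGM1, GYS1, GBE1 and PPP1R3C were lower than in the same vehicle libraries at 1% O2 and none was higher, against a background of 13.7% lower and 16.2% higher among all genes and 19.3% and 16.0% among the genes with higher counts. The median log2 difference was −0.92 for the 9 genes, −0.01 for all genes and −0.13 for the genes with higher counts. Between 32-134D at 1% O2 and vehicle at 20% O2 none of the 9 was called, where 3.0% of all genes were higher and 0.516% lower, as were 4.72% and 0.625% of the genes with higher counts.

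**Figure D1:**
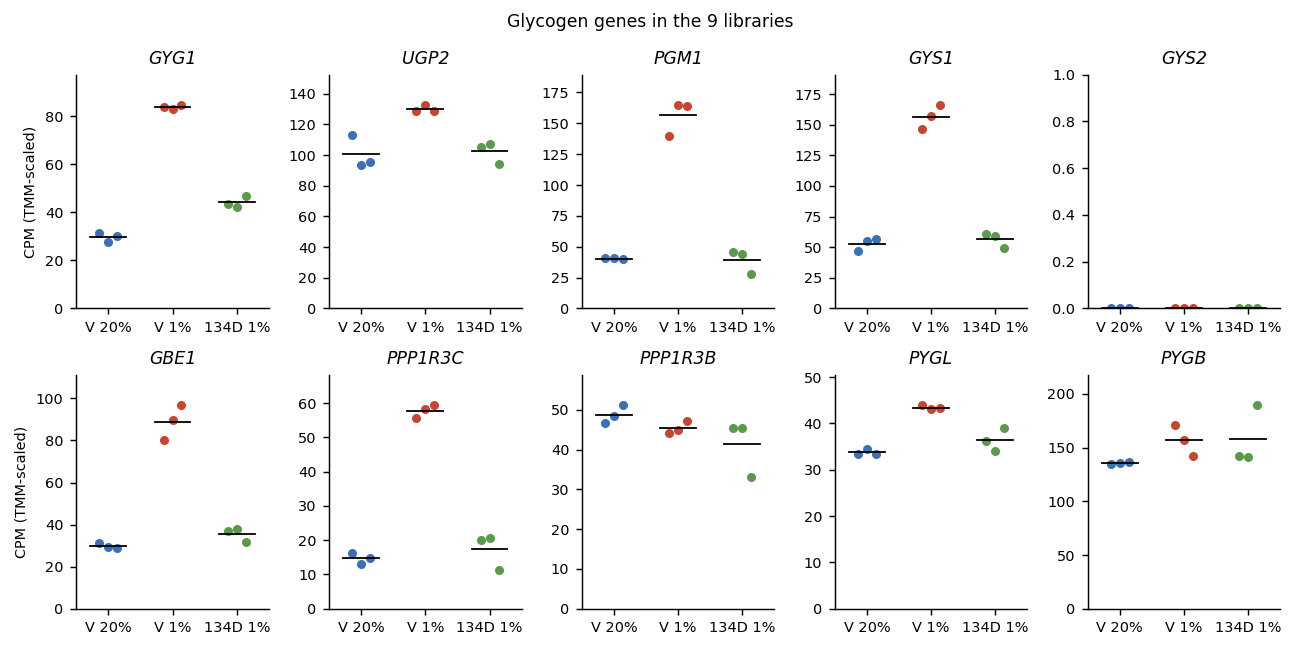
Levels of the 10 glycogen genes in each library. The vertical axis is CPM scaled by the trimmed mean of M-values, on a linear scale starting at 0. Points are libraries in the order of their replicate numbers, bars are group means (n = 3), V is vehicle and 134D is 32-134D. GYG1, PGM1, GYS1, GBE1 and PPP1R3C stand higher in all 3 libraries of vehicle at 1% O2 than in any other library. UGP2 and PYGL do so too, by smaller margins, and GYS2 is at 0 throughout. The share of all genes that separate in this way was not computed.

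GYG1 (ENSG00000163754; chr3:148991341-149027668, plus strand) encodes glycogenin, the self-glucosylating primer of the particle. Its level was 31.4, 27.5 and 30.4 CPM in vehicle at 20% O2, 83.9, 83.1 and 84.7 CPM in vehicle at 1% O2, and 43.7, 42.4 and 47.0 CPM in 32-134D. The 3 groups did not overlap, and the treated cells lay between the others. In hypoxia GYG1 rose by 1.49 ± 0.079 on the log2 scale (SE; edgeR FDR = 1.18e-09), and with 32-134D it fell by 0.92 ± 0.075 (FDR = 2.01e-07). It was the single member for which 32-134D at 1% O2 and vehicle at 20% O2 differed at an FDR below 0.05: the difference was 0.57 ± 0.079 (FDR = 0.000331), a 1.48-fold higher level that fell just short of the 1.5-fold threshold. The pseudogenes GYG1P1, GYG1P2 and GYG1P3 had 0 counts.

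PGM1 (ENSG00000079739; chr1:63593276-63660245, plus strand) encodes the phosphoglucomutase that interconverts glucose 6-phosphate and glucose 1-phosphate. It was at 40.8, 40.5 and 40.0 CPM in vehicle at 20% O2, at 139.9, 164.8 and 164.3 CPM in vehicle at 1% O2, and at 45.9, 44.3 and 27.7 CPM in 32-134D. The hypoxic vehicle libraries were above all others, and replicate 3 of 32-134D was the lowest of the 9. PGM1 rose by 1.95 ± 0.15 (FDR = 3.75e-08) in hypoxia and fell by 1.99 ± 0.14 (FDR = 6.56e-08) with 32-134D. Its log2 difference between 32-134D and vehicle at 20% O2 was −0.03 (95% interval −0.35 to 0.28), and 0.16 without replicate 3 of 32-134D. Of its exon bases, 4.68% overlap ITGB3BP on the opposite strand.

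UGP2 (ENSG00000169764; chr2:63840940-63891562, plus strand) encodes UDP-glucose pyrophosphorylase, which makes the glucose donor of glycogen synthase. Its levels were 113.3, 93.4 and 95.7 CPM in vehicle at 20% O2, 129.0, 132.7 and 129.0 CPM in vehicle at 1% O2, and 105.5, 107.6 and 94.3 CPM in 32-134D. The hypoxic vehicle libraries were again the highest, by a smaller margin. The log2 difference was 0.37 ± 0.084 (FDR = 0.00170) in hypoxia and −0.35 ± 0.082 (FDR = 0.00291) with 32-134D, both below the 1.5-fold threshold.

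GYS1 (ENSG00000104812; chr19:48968125-48993310, minus strand) encodes the glycogen synthase found in muscle and most other tissues. It was at 46.7, 55.3 and 56.8 CPM in vehicle at 20% O2, at 146.3, 157.1 and 166.0 CPM in vehicle at 1% O2, and at 61.0, 59.1 and 49.1 CPM in 32-134D. The 2 other groups overlapped each other and neither reached the hypoxic vehicle libraries. GYS1 rose by 1.56 ± 0.099 (FDR = 6.55e-09) in hypoxia and fell by 1.47 ± 0.097 (FDR = 2.78e-08) with 32-134D, and the log2 difference between 32-134D and vehicle at 20% O2 was 0.09 (95% interval −0.12 to 0.31).

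GYS2 (ENSG00000111713; chr12:21536189-21604847, minus strand) encodes the liver glycogen synthase. It had 0 counts in each of the 9 libraries, although the hepatocyte markers were present. A count of 0 allows up to 3 counts, which is 0.0795 CPM in the deepest library and 0.471 CPM in the shallowest, counting error only. The zero is uncertain for another reason: 87.5% of the exon bases of GYS2 lie in AC010197.2, a gene on the same strand that had 1 count in all, and 12.0% in SPX on the opposite strand, which had 786. Reads shared by overlapping genes may have been left uncounted, so the 0 limits assigned reads and not the transcript.

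GBE1 (ENSG00000114480; chr3:81489699-81762161, minus strand) encodes the branching enzyme. Its levels were 31.1, 29.2 and 29.1 CPM in vehicle at 20% O2, 80.2, 90.0 and 96.7 CPM in vehicle at 1% O2, and 36.9, 37.8 and 32.0 CPM in 32-134D. No 2 groups overlapped, although the treated and the 20% O2 libraries came close. GBE1 rose by 1.58 ± 0.094 (FDR = 3.52e-09) in hypoxia and fell by 1.32 ± 0.090 (FDR = 3.97e-08) with 32-134D. Its log2 difference between 32-134D and vehicle at 20% O2 was 0.26 (95% interval 0.05 to 0.46, FDR = 0.104).

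PPP1R3C and PPP1R3B, targeting subunits that bring PP1 to glycogen, differed in their response. PPP1R3C (ENSG00000119938; chr10:91628442-91633054, minus strand) was at 16.2, 13.03 and 14.8 CPM in vehicle at 20% O2, at 55.7, 58.2 and 59.4 CPM in vehicle at 1% O2, and at 20.1, 20.6 and 11.4 CPM in 32-134D. It rose by 1.96 ± 0.17 (FDR = 1.74e-07) in hypoxia and fell by 1.72 ± 0.16 (FDR = 6.93e-07) with 32-134D. PPP1R3B (ENSG00000173281), the subunit of liver, was at 46.6, 48.5 and 51.1 CPM in vehicle at 20% O2, at 44.1, 45.0 and 47.3 CPM in vehicle at 1% O2, and at 45.4, 45.5 and 33.2 CPM in 32-134D. Its libraries overlapped between 20% and 1% O2, with a log2 difference of −0.10 (95% interval −0.34 to 0.13). The difference with 32-134D was −0.13 (95% interval −0.36 to 0.09) and 0.00 without replicate 3 of 32-134D.

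Within a library, the log2 ratio of PPP1R3C to PPP1R3B counts was −1.52, −1.88 and −1.78 in vehicle at 20% O2, 0.34, 0.37 and 0.33 in vehicle at 1% O2, and −1.18, −1.14 and −1.53 in 32-134D. These ratios are not scaled to length, and the 3 hypoxic vehicle libraries lay above the other 6. The ratio differed over the 3 groups (exact permutation test, p = 0.00714, adjusted p = 0.0143 over 2 ratios; the smallest p possible was 0.00357). Between pairs of groups a two-sided exact permutation test could not go below 0.1, which it reached for hypoxia and for 32-134D against vehicle at 1% O2, and was 0.2 for 32-134D against vehicle at 20% O2. Per kilobase of exon, PPP1R3C made up 40.8% ± 3.21, 74.4% ± 0.302 and 48.4% ± 3.75 (SD, n = 3) of the pair, and in single libraries of 32-134D 50.3%, 50.8% and 44.1%.

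PYGL (ENSG00000100504; chr14:50857891-50944736, minus strand) and PYGB (ENSG00000100994; chr20:25248069-25298014, plus strand) encode the liver and the brain forms of glycogen phosphorylase, and neither was called in any comparison. PYGL was at 33.4, 34.4 and 33.4 CPM in vehicle at 20% O2, at 43.9, 43.1 and 43.3 CPM in vehicle at 1% O2, and at 36.1, 34.0 and 39.0 CPM in 32-134D. The hypoxic vehicle libraries were the highest, with a log2 difference of 0.37 ± 0.079 in hypoxia (FDR = 0.00108) and −0.26 ± 0.076 with 32-134D (FDR = 0.0117), both short of 1.5-fold. PYGB was at 134.5, 135.5 and 136.3 CPM in vehicle at 20% O2, at 171.1, 156.7 and 142.5 CPM in vehicle at 1% O2, and at 142.4, 141.5 and 189.4 CPM in 32-134D. Its log2 difference was 0.21 (95% interval −0.01 to 0.44, FDR = 0.106) in hypoxia and 0.01 (95% interval −0.21 to 0.23) with 32-134D, where replicate 3 was the highest of all 9 libraries.

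**Figure D2:**
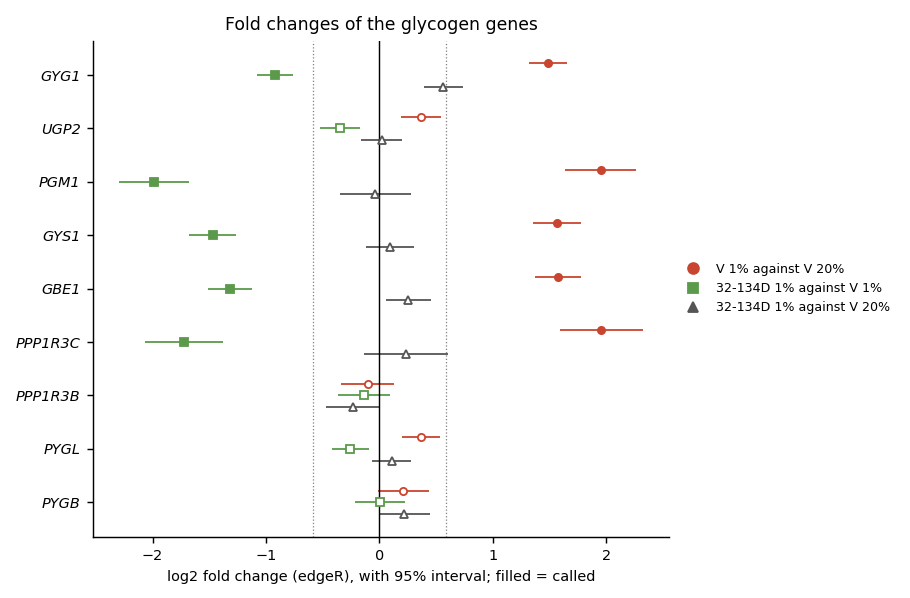
Log2 fold changes of the 9 glycogen genes tested. Points are edgeR estimates with 95% intervals for the 3 comparisons (n = 3 libraries per group), filled where the gene was called. The dotted lines mark a 1.5-fold change. The 5 genes called in hypoxia lie between 1.49 and 1.96, and GYG1, PGM1, GYS1, GBE1 and PPP1R3C lie between −1.99 and −0.92 for 32-134D against vehicle at 1% O2.

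The log2 ratio of PYGB to PYGL counts was 2.01, 1.97 and 2.03 in vehicle at 20% O2, 1.96, 1.86 and 1.72 in vehicle at 1% O2, and 1.98, 2.06 and 2.28 in 32-134D. The brain form was the more abundant per kilobase in all 9 libraries, at 81.2% ± 0.273, 79.4% ± 1.39 and 82.2% ± 1.56 of the pair (SD, n = 3). The ratio was lowest in vehicle at 1% O2, but the span was small. It differed over the 3 groups (exact permutation test, p = 0.0286, adjusted p = 0.0286). Leaving out single libraries raised p to as much as 0.146, without replicate 3 of vehicle at 1% O2. Between pairs of groups the exact permutation test gave 0.1, its smallest possible p, for hypoxia and for 32-134D against vehicle at 1% O2. For 32-134D against vehicle at 20% O2 it gave 0.3.

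**Figure D3:**
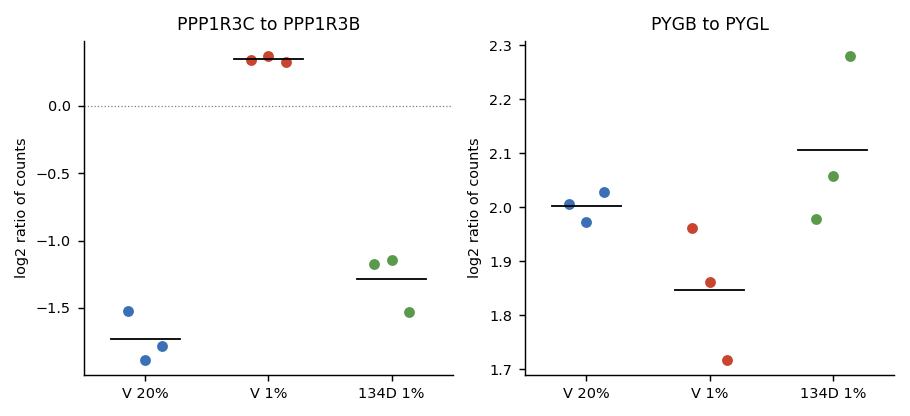
Log2 ratio of counts within each library for the PP1 targeting subunits (left) and the phosphorylases (right). Points are libraries, bars are group means (n = 3), V is vehicle and 134D is 32-134D. The dotted line marks equal counts, not scaled to gene length, which PPP1R3C passes in vehicle at 1% O2, and the vertical axes differ in span and do not start at 0.

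Per kilobase of exon, the order of the genes shifted with the condition. In vehicle at 20% O2, PYGB led at 30.3 ± 0.212 CPM per kilobase (SD, n = 3), followed by UGP2 at 15.5 ± 1.67, GYS1 at 12.5 ± 1.28 and PGM1 at 9.60 ± 0.101. GYG1 (8.48 ± 0.581) and PPP1R3B (8.44 ± 0.392) overlapped, as did PPP1R3C (5.82 ± 0.631) and GBE1 (5.77 ± 0.220), with PYGL (7.03 ± 0.118) between these pairs. In vehicle at 1% O2, PGM1 (37.1 ± 3.37), GYS1 (36.9 ± 2.33) and PYGB (35.0 ± 3.2) overlapped at the top, GYG1 (23.9 ± 0.236) and PPP1R3C (22.9 ± 0.736) came next, and UGP2 (20.0 ± 0.329), GBE1 (17.2 ± 1.61), PYGL (9.05 ± 0.0874) and PPP1R3B (7.87 ± 0.285) followed without overlap. In 32-134D, PYGB (35.3 ± 6.12) and UGP2 (15.8 ± 1.10) led again, and the neighbours from PGM1 (9.33 ± 2.40) down to PPP1R3C (6.88 ± 2.04) overlapped.

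Another 27 genes of glycogen metabolism and its control were examined, of which 26 could be tested and PPP1R3A, a muscle targeting subunit of PP1, had 0 counts. In hypoxia 11 were called higher and 4 lower, with a median log2 fold change of 0.22, and with 32-134D 4 were called higher and 9 lower, with a median of −0.29. Against vehicle at 20% O2 the treated cells had 1 gene higher and 0 lower. As for the members, the shares of all genes called higher and lower were 19.5% and 20.3% in hypoxia and 16.2% and 13.7% with 32-134D, and 3.0% and 0.516% in the third comparison.

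The largest change on the list was that of PPP1R3G, a further PP1 targeting subunit. Its level was 12.2, 13.3 and 12.9 CPM in vehicle at 20% O2, 177.5, 179.7 and 184.9 CPM in vehicle at 1% O2, and 19.8, 21.9 and 12.9 CPM in 32-134D, a rise of 3.82 ± 0.15 on the log2 scale in hypoxia (FDR = 7.09e-11) and it fell by 3.30 ± 0.14 with 32-134D (FDR = 4.81e-10). Of the other targeting subunits tested, PPP1R3D, PPP1R3E and PPP1R3F were not called. STBD1, which binds glycogen and anchors it to membranes, was at 6.67, 7.85 and 7.82 CPM, at 42.0, 41.7 and 41.6 CPM, and at 12.96, 13.2 and 11.8 CPM in the 3 groups in the same order. It rose by 2.49 ± 0.10 (FDR = 1.07e-10) and fell by 1.72 ± 0.092 with 32-134D (FDR = 4.39e-09). It was the gene of this list called higher in 32-134D than in vehicle at 20% O2, by 0.77 ± 0.10 (FDR = 0.000270). PPP1R3G (0.52), RBCK1 (0.40), PPP1CB (0.37) and PPP1CC (0.30) were also higher there, but by less than 1.5-fold. Their edgeR FDRs were 0.0105 to 0.0439. The PPP1R3G libraries of these groups overlapped. RBCK1 was at 90.8, 93.4 and 133.3 CPM in 32-134D, highest in replicate 3, against 76.8 to 84.3 CPM in vehicle at 20% O2. STBD1 shares 58.1% of its exon bases with FAM47E-STBD1 on the same strand, so its count may be too low.

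The 4 genes of this list that were called lower in hypoxia follow, each with its difference for 32-134D. GYG2, the glycogenin of liver, was at 22.3, 23.6 and 23.1 CPM in vehicle at 20% O2, 6.60, 6.74 and 7.09 CPM in vehicle at 1% O2, and 20.6, 19.8 and 13.7 CPM in 32-134D. It fell by 1.75 ± 0.14 in hypoxia (FDR = 8.09e-08) and was 1.41 ± 0.14 higher with 32-134D (FDR = 1.10e-06). EPM2A (laforin, a glycogen phosphatase) fell by 1.01 and was 0.85 higher (FDR = 0.000492 and 0.00178). Its ubiquitin ligase partner NHLRC1 (malin), with 384 counts in all, fell by 1.66 and was 1.16 higher (FDR = 4.86e-05 and 0.00112). PHKB, the beta subunit of phosphorylase kinase, fell by 0.79 and was 0.59 higher (FDR = 2.44e-06 and 5.05e-05). Both comparisons rest on the same 3 libraries of vehicle at 1% O2.

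The other genes called were higher in hypoxia. Of phosphoglucomutases, PGM2 rose by 0.93 and fell by 0.73 with 32-134D, and PGM2L1 rose by 0.98 and fell by 0.66. RBCK1, a ubiquitin ligase whose loss leads to abnormal glycogen, rose by 1.04 and fell by 0.63. The PP1 catalytic subunits PPP1CB and PPP1CC rose by 0.96 and 0.90 and both fell by 0.59. PPP1CA differed in the same directions, by 0.28 in hypoxia and −0.36 with 32-134D (edgeR FDR = 0.00472 and 0.000970). Both were short of 1.5-fold and so not called. Of phosphorylase kinase alpha subunits, PHKA2 rose by 0.64 and fell by 1.06, and PHKA1 rose by 0.74 with no call for 32-134D. GSK3A, a kinase that inhibits glycogen synthase, rose by 0.77. With 32-134D it was 0.53 lower (edgeR FDR = 2.41e-05), short of 1.5-fold and so not called. GSK3B went the other way, with differences of −0.39 in hypoxia and 0.46 with 32-134D (edgeR FDR = 0.000995 and 0.000270). Neither GSK3B difference was called. GAA, also on the list, differed by −0.583 in hypoxia and 0.455 with 32-134D (edgeR FDR = 6.10e-06 and 8.73e-05). The first fell just short of 1.5-fold, and neither was called. In edgeR's test the calls given from PGM2 to GSK3A had FDRs of 3.97e-08 to 0.00405 in hypoxia and 4.35e-06 to 0.000374 with 32-134D. G6PC1, the catalytic subunit of glucose 6-phosphatase that releases glucose from the liver, was called higher in hypoxia (FDR = 0.000288) and lower with 32-134D (FDR = 0.000364) on only 60 counts in all: 1, 0 and 2 in vehicle at 20% O2, 20, 13 and 16 in vehicle at 1% O2, and 3, 3 and 2 in 32-134D. PYGM, the muscle phosphorylase, had 96 counts and was not called.

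**Figure D4:**
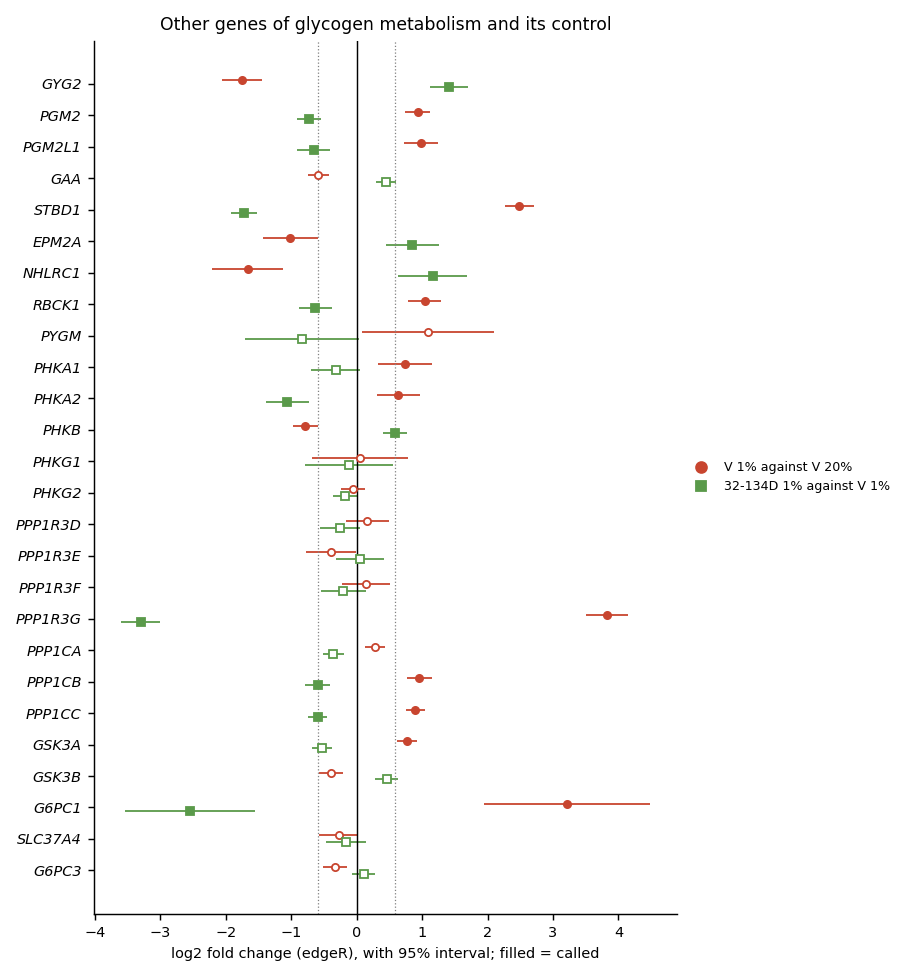
Log2 fold changes of the 26 other glycogen genes tested, in hypoxia (vehicle at 1% against 20% O2) and for 32-134D against vehicle at 1% O2. Points are edgeR estimates with 95% intervals (n = 3 libraries per group), filled where the gene was called, and the dotted lines mark a 1.5-fold change. PPP1R3G (3.82) and STBD1 (2.49) lie far to the right in hypoxia, and GYG2 (−1.75) lies farthest to the left in that comparison. For 32-134D, PPP1R3G (−3.30) lies farthest to the left, and G6PC1 rests on 60 counts.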

How the data were processed

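RNA from 9 cultures of Hep3B cells was sequenced on an Illumina NovaSeq instrument. The authors trimmed the reads, aligned them with STAR to GRCh38 (Ensembl release 100) and counted reads per gene with featureCounts; they used DESeq2 for their own tests. Tool versions and the strand setting are not given in the sources used here, so antisense and overlapping genes are uncertain. The deposited values were raw counts per gene, not normalised.

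Groups came from the sample labels. The counts were tested with edgeR 4.0.16 (R 4.3.3; quasi-likelihood test, scaling by the trimmed mean of M-values, 1 fit of 9 libraries), on genes with at least 10 counts in sum, with Benjamini-Hochberg adjustment. A gene was called at FDR below 0.05 and a fold change above 1.5. CPM, which set counts relative to library size, used the same scaling. Ratios used counts plus 1. The test was checked on simulated counts with the spread fitted to these data. No simulated library stood apart as replicate 3 of 32-134D did, so that case was not checked. Exon lengths and positions came from GENCODE on GRCh38, a release other than the authors', and promoters from RefSeq. The ratio of GYS1 to GYS2, which was to be tested, was left out because GYS2 had 0 counts.

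The 10 genes and the lists were chosen with earlier results of these data known. All 10 are named; of the further list, the genes called or not tested are named, with a few others chosen after their values were seen. A further gene of that list is not reported here and was left out of its counts. Alternatives were another tool (DESeq2 1.42.0), scalings, filters, fold thresholds, thinning, a replicate block and leaving out libraries.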

Additional observations from a re-analysis of the deposited data

How the results depend on the processing

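The 5 members called in hypoxia stayed called under each alternative, and so did the 5 called with 32-134D, except GYG1 (−0.92) under a threshold of fold change 2. GYG1 in 32-134D against vehicle at 20% O2 was called, as 1 member higher, with no filter (0.59), no fold threshold (0.57), thinning (0.73), without replicate 1 of vehicle at 20% O2 (0.61) and without replicate 2 of 32-134D (0.60); leaving out single libraries gave 0 to 1. Without a fold threshold UGP2 and PYGL were also called.

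Values that were never called changed sign as follows (log2). PYGB in hypoxia was −0.0016 with total library size. PYGB with 32-134D was −0.00075 with no filter, −0.14 without replicate 3 of 32-134D and −0.14 with 2 libraries left out together (that replicate and replicate 2 of vehicle at 20% O2, chosen after seeing the data). PPP1R3B with 32-134D was 0.054 with total library size, 0.048 with thinning, 0.00061 without replicate 3 and 0.0012 without both. Against vehicle at 20% O2, UGP2 was −0.0061 with total library size, −0.051 with upper-quartile scaling, −0.036 with thinning, and −0.026, −0.022 and −0.017 without replicates 2 and 3 of vehicle at 20% O2 and replicate 2 of 32-134D (single libraries left out gave −0.026 to 0.12); PGM1 was 0.28 with thinning, 0.16 without replicate 3 of 32-134D (single libraries, −0.15 to 0.16) and 0.16 without both. Leaving out single libraries gave −0.14 to 0.14 for PYGB and −0.20 to 0.00061 for PPP1R3B with 32-134D.

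Counts on the further list of 27 genes moved more. In hypoxia (11 higher, 4 lower) 7 were lower with total library size and with no fold threshold, 4 were higher at fold change 2, and 2 were lower with thinning. With 32-134D (4 higher, 9 lower) the number lower was 4 with total library size, 5 with upper-quartile scaling, 4 where each library had to hold 10 counts, 4 at fold change 2 (2 higher) and 4 with thinning (1 higher); leaving out single libraries gave 5 to 9, with 5 without replicate 3 of vehicle at 1% O2 or replicate 1 of 32-134D. Against vehicle at 20% O2 (1 higher) it was 0 at fold change 2 and with thinning, 5 with no fold threshold and 2 with 2 libraries left out together; leaving out single libraries gave 1 to 2, with 2 without replicate 3 of 32-134D.

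Among all genes tested, hypoxia (4412 higher, 4595 lower) gave 2824 higher where each library had to hold 10 counts, 2449 higher at fold change 2, and 2632 higher and 2942 lower with thinning. With 32-134D (3675 higher, 3100 lower) 1847 were lower with total library size, 1771 where each library had to hold 10 counts, 1188 at fold change 2, 5788 with no fold threshold, and 2225 were higher and 1638 lower with thinning. Against vehicle at 20% O2 (681 higher, 117 lower) 247 were lower with upper-quartile scaling, 291 with no filter, 39 with only the 2 groups compared and 53 with 2 libraries left out together; fold change 2 gave 283 higher and 21 lower, no fold threshold 1771 and 553, and thinning 359 and 63, and leaving out single libraries gave 35 to 198 lower (62, 35 and 41 without replicates 1, 2 and 3 of vehicle at 20% O2, 198 and 176 without replicates 1 and 2 of 32-134D). Total library size moved the median of all genes to −0.21 in hypoxia and 0.17 with 32-134D, upper-quartile scaling to −0.19 and 0.11; the share of calls that were higher went from 49.0% to 34.5% and 35.7% in hypoxia, from 54.2% to 72.0% and 66.1% with 32-134D, and with upper-quartile scaling from 85.3% to 68.4% against vehicle at 20% O2.

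The PYGB to PYGL ratio lost its p below 0.05 without replicate 1, 2 or 3 of vehicle at 20% O2, 2 or 3 of vehicle at 1% O2, or 2 or 3 of 32-134D; leaving out single libraries, its log2 difference was −0.21 to −0.091 in hypoxia and 0.17 to 0.32 with 32-134D (exact permutation p up to 0.146). The ratio of PPP1R3C to PPP1R3B kept its side of the threshold. No ratio of GYS1 to GYS2 was run, since GYS2 had 0 counts.

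No pairing of the samples by replicate number was seen: deviations of same-numbered libraries correlated at −0.21 to 0.088. Those of libraries with different numbers correlated at −0.20 to 0.24. With 3 libraries per group these values cannot exclude pairing. With a replicate block 5 members were called higher in hypoxia, 5 lower with 32-134D and 0 in the third comparison, and all genes gave 4296 higher and 4375 lower in hypoxia. Depth limits G6PC1 and PYGM.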
